A study of Mus musculus with 16 samples.

Results

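Leukocytes leave or enter the blood of bone through adhesion molecules on the endothelium. The 6 genes described here encode such molecules, namely the selectins Sele (E-selectin) and Selp (P-selectin), the immunoglobulin superfamily members Vcam1, Icam1 and Icam2, and the mucosal addressin Madcam1. They were chosen by name from 38926 gene names in the values for mpECs and bmECs and 38922 in the values for Lats2, and by Ensembl identifier from 21603 rows in the values for Yap1/Taz. All 6 were found in each and all 6 passed the filter on low values in every comparison.

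Selectins bind sialylated, fucosylated glycans on leukocytes and slow the cells to a roll, and immunoglobulin superfamily members then bind leukocyte integrins so that the cells arrest and cross the vessel wall. Most endothelia make Sele and Vcam1 mainly after stimulation by cytokines through NF-kappaB, whereas the endothelium of bone marrow is known to carry both at rest, where they take part in the homing and retention of blood-forming cells. Selp is stored in Weibel-Palade bodies, secretory granules of endothelial cells, and also in platelet granules, while Icam2 is made by resting endothelium.

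RNA was sequenced from 16 libraries of endothelial cells (ECs) sorted from the bones of C57BL/6 mice in 6 groups. Metaphyseal ECs (mpECs) and bone marrow ECs of the diaphysis (bmECs), with 3 libraries each, came from wildtype mice, 3 weeks old in the study's methods, that carried the Cdh5-mT/nG reporter of endothelial cells. The second comparison had 3 libraries of Yap1flx/flx, Wwtr1flx/flx mice without Cdh5CreERT2 (control) and 3 of mice with it (labelled Yap1/Taz ECKO), all at postnatal day 21. Wwtr1 encodes Taz. The third comparison had 2 libraries of Lats2flx/flx mice without Cdh5CreERT2 (control) and 2 of mice with it (labelled Lats2 cKO). Cdh5CreERT2 is a Cre recombinase that the endothelial Cdh5 promoter drives and that tamoxifen activates, and the groups with and without it both carried the floxed alleles. The study's methods give an age of 3 weeks for the Lats2 mice too, and littermates without Cre as controls of both mutant lines. Values are FPKM, fragments per kilobase of gene scaled to the size of the library, so levels of different genes can be set side by side within a library. The 3 tables were normalised separately, and nothing was tested across them.

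Reads recovered from the values numbered 11127850 to 14789141 per library in mpECs and bmECs, 4881674 to 7151272 in the Yap1/Taz libraries and 4733529 to 7077699 in the Lats2 libraries. The members had 115 to 102838 recovered reads per mpEC or bmEC library, but Madcam1 had 27 to 100 per Yap1/Taz library and 19 to 143 per Lats2 library, so its level was the least precise. The study's methods speak of biological replicates, but neither they nor the labels say which animals a library came from, and p-values measure the spread between libraries, of which Lats2 has 2 a group.

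The targeted genes were checked first. Wwtr1 was at 10.01, 9.88 and 10.3 FPKM in the Yap1/Taz controls and at 15.3, 19.6 and 19.5 FPKM in the libraries labelled Yap1/Taz ECKO, which goes against that label (difference 0.78 ± 0.12 SE on the log2(FPKM + 1) scale, limma adjusted p = 0.0272). Yap1 was at 1.07, 1.62 and 0.995 FPKM in the controls and at 1.43, 1.03 and 0.989 FPKM in the libraries labelled Yap1/Taz ECKO. Lats2 was at 23.4 and 24.0 FPKM in its controls and at 19.2 and 19.2 FPKM in the libraries labelled Lats2 cKO (difference -0.29, adjusted p = 0.125). Values over a whole gene do not show the loss of single exons. Every direction given for Yap1/Taz rests on these labels and would turn if the labels of the groups were exchanged, which was not tested.

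All 12 endothelial marker genes were above 0 in every group, with a summed level of 1812 to 2420 FPKM in mpECs and bmECs and 3202 to 3673 FPKM in the Lats2 libraries. The Yap1/Taz libraries had 724.6 to 1061 FPKM of these markers beside 1169 to 1701 FPKM of 10 macrophage markers, which were at 20.01 to 94.6 FPKM elsewhere. Erythroid markers were highest in mpECs and bmECs, where 7 of them summed to 28290 to 60420 FPKM. They summed to 4404 to 6577 FPKM in the Yap1/Taz and 241.6 to 3655 FPKM in the Lats2 libraries. The 12 leukocyte markers summed to 6728 to 19770, 2004 to 3837 and 529 to 1964 FPKM in the same order. In bulk RNA, fewer cells of a type and less RNA per cell cannot be told apart.

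Sele lies on chromosome 1 of GRCm38 at chr1:164048234-164057677 on the plus strand and Selp on the same strand at chr1:164115264-164150026. Vcam1 is on the minus strand at chr3:116109949-116129688, Icam1 on the plus strand at chr9:21015985-21028817, Icam2 on the minus strand at chr11:106377656-106388075, and Madcam1 on the plus strand at chr10:79664559-79668537. Genes annotated on the other strand share 14.1% of the exon bases of Selp and 11.7% of those of Icam1. Whether counting used strand is not given in the sources used here, so reads from those genes may be part of both levels.

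The promoters of Sele and Madcam1 are shown because these genes had the largest differences between mpECs and bmECs among the 6. Each is the 250 bases before the annotated start, 5′ to 3′, from RefSeq on GRCm38.p6, at chr1:164047984-164048233 and chr10:79664309-79664558, both on the plus strand. Capitals mark matches to TATAAA, to TGACTCA (bound by AP-1) and to the NF-kappaB consensus.
Sele: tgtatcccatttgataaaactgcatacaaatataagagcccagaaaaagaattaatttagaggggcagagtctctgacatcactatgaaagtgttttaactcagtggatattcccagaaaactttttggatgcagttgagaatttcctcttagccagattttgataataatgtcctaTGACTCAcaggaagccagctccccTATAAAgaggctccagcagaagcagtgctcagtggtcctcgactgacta
Madcam1: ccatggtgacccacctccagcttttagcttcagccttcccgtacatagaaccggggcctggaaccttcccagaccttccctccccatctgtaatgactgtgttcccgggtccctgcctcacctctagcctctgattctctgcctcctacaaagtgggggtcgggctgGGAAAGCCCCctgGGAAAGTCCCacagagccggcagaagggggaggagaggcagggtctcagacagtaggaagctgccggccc

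The Sele window holds TGACTCA 73 to 67 bases and TATAAA 49 to 44 bases before the start. The Madcam1 window holds the NF-kappaB consensus in 2 places on the minus strand, at 83 to 74 and at 70 to 61 bases before the start. Both strands were searched, also for the TEAD core GGAATG, which neither window holds, and no matches overlap. The windows of Selp and Icam1, the other members with an entry, hold none of the 4 motifs. Of the 32851 promoter windows of this length, 7.25% hold the NF-kappaB consensus, 12.4% TATAAA, 4.46% TGACTCA and 12.6% GGAATG. A match describes the letters and is not evidence of binding. Only exact matches to these patterns were searched, so a window without one may still hold variant sites.

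**Figure D1:**
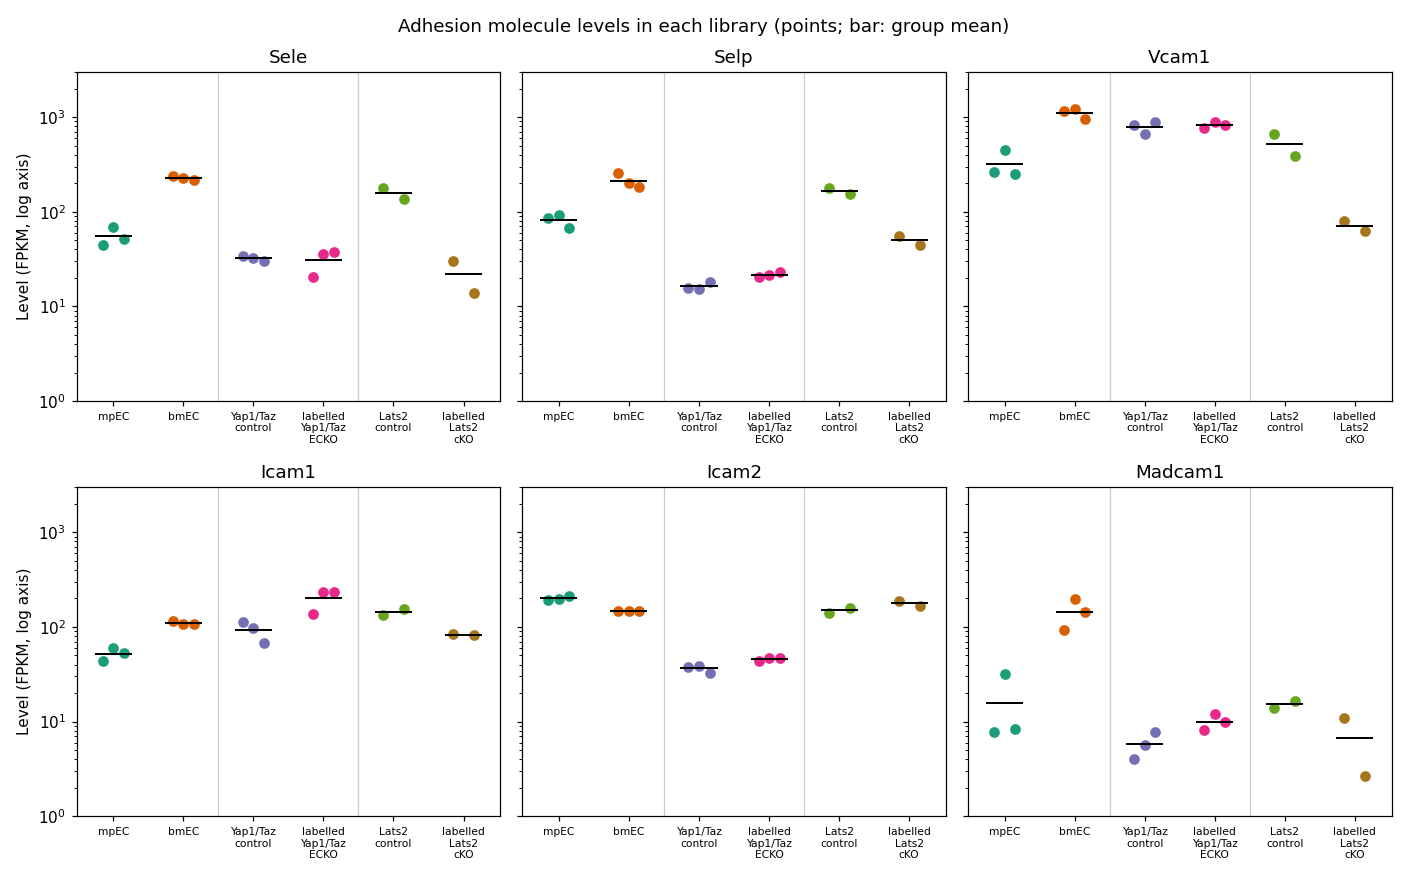
FPKM of each adhesion molecule in every library (points, log axis) with the group mean (bar), for mpECs, bmECs, and the libraries labelled as control or as Cre-positive in the Yap1/Taz and Lats2 comparisons. Sele lies between 219 and 239.6 FPKM in bmECs and between 14.0 and 30.4 FPKM in the libraries labelled Lats2 cKO, each apart from its comparison group.

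In bmECs, 5 of the 6 adhesion molecules were higher than in mpECs and Icam2 was lower. This comparison asks how ECs of the metaphysis, where bone grows, differ from those of the marrow cavity. All 6 passed at an adjusted p under 0.05, against 23.5% of the 11422 genes tested, of which 13.0% were higher and 10.5% lower. The groups did not overlap for any of the 6, against 41.3% of all genes, 22.1% higher and 19.2% lower. The median difference of the members was 1.59 on the log2(FPKM + 1) scale and that of all genes tested -0.00068.

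E-selectin (Sele) was at 239.6, 228 and 219 FPKM in bmECs and at 44.4, 69.7 and 51.1 FPKM in mpECs. The lowest bmEC library was more than 3 times the highest mpEC library, and the bmEC libraries lay close together. The difference was 2.06 ± 0.15 (SE, n = 3 and 3) on the log2(FPKM + 1) scale, with a limma adjusted p of 9.29e-05. P-selectin (Selp) was at 256, 202 and 182 FPKM in bmECs and at 84.9, 93.2 and 67.8 FPKM in mpECs. Its difference was smaller, 1.37 ± 0.16 (SE, adjusted p = 6.89e-04). Within a library, Sele was at 0.523 to 0.753 times the level of Selp in mpECs and at 0.936 to 1.20 times in bmECs, so the ratio of the selectins did not overlap between the groups.

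Vcam1, whose product binds the integrin VLA-4 on blood-forming cells and lymphocytes, was the most abundant of the 6 in both groups. It was at 1149, 1226 and 944 FPKM in bmECs and at 265, 446 and 253 FPKM in mpECs. The difference was 1.82 ± 0.22 (SE, adjusted p = 8.32e-04), and mpEC replicate 2 lay nearest to the bmECs. The same library had the highest levels of Sele, Selp, Icam1 and Madcam1 among mpECs. Madcam1, known as the ligand of integrin alpha4beta7 on venules of the gut, was at 7.75, 31.6 and 8.27 FPKM in mpECs and at 91.7, 195.5 and 143 FPKM in bmECs. Its difference was the largest of the 6, at 3.32, and also the least precise, with a 95% interval of 2.16 to 4.47 (adjusted p = 0.00257).

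The ICAMs moved in opposite directions. Icam1, a ligand of the integrins LFA-1 and Mac-1, was at 115, 106 and 108 FPKM in bmECs and at 43.5, 59.5 and 52.7 FPKM in mpECs, a difference of 1.08 ± 0.12 (SE, adjusted p = 5.35e-04). Icam2, a ligand of LFA-1, was at 148, 146 and 149 FPKM in bmECs and at 194, 199.6 and 214 FPKM in mpECs, a difference of -0.45 ± 0.07 (SE, adjusted p = 0.00386). Per length, Icam1 was therefore at 0.225 to 0.298 times the level of Icam2 in mpECs and at 0.725 to 0.781 times in bmECs.

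In mpECs the order of the mean levels was Vcam1 (322 FPKM), Icam2 (202), Selp (82.0), Sele (55.1), Icam1 (51.9) and Madcam1 (15.9). Neighbours in that order were apart except Selp and Sele, and Sele and Icam1, whose libraries overlapped. In bmECs the order was Vcam1 (1106 FPKM), Sele (229), Selp (213), Icam2 (147), Madcam1 (143) and Icam1 (109.9). There only Vcam1 from Sele and Selp from Icam2 were apart. The summed level of the 6 was 639 to 899.7 FPKM in mpECs and 1744 to 2104 FPKM in bmECs. Icam2 made up 22.2% to 33.1% of that sum in mpECs and 6.94% to 8.53% in bmECs, and Vcam1 39.1% to 49.6% and 54.1% to 58.3%.

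**Figure D2:**
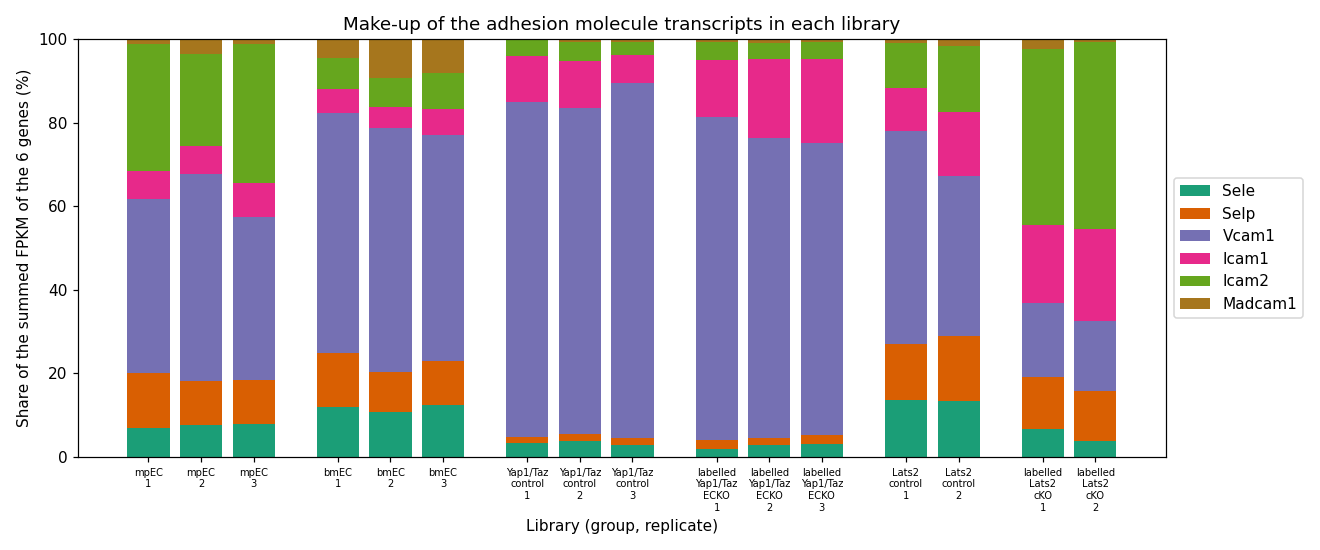
Share of each adhesion molecule in the summed FPKM of the 6 genes (percent, stacked bars), with 1 bar for each library. Vcam1 makes up 77.8% to 85.0% in the Yap1/Taz controls and 16.7% to 17.7% in the libraries labelled Lats2 cKO, where Icam2 makes up 42.1% to 44.8%.

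Platelets carry P-selectin, reticular stromal cells and macrophages carry Vcam1, and leukocytes carry Icam1 and Icam2. The 10 platelet markers summed to 79.4 to 343 FPKM in mpECs and 81.0 to 492 FPKM in bmECs, and 0 of 9 tested differed. The 10 macrophage markers summed to 53.9 to 89.3 and 64.5 to 94.6 FPKM, with 2 of 9 higher in bmECs and 0 lower. Among the higher ones was Mertk (1.43, limma adjusted p = 3.21e-04). The 8 stromal markers summed to 54.3 to 55.5 and 47.4 to 91.4 FPKM, with 2 of 5 higher and 0 lower. The higher stromal markers were Lepr (1.85, adjusted p = 5.07e-05) and Adipoq (1.495, adjusted p = 0.00278). The 12 leukocyte markers summed to 8426 to 19770 FPKM in mpECs and 6728 to 9590 FPKM in bmECs, with 1 of 11 lower, Lcp1 (-0.52, adjusted p = 0.0307), and a median difference of -0.52. Dissociation stress genes summed to 890.5 to 1331 and 1065 to 3559 FPKM, with 2 of 10 higher in bmECs. Osteoblast markers summed to 247 to 976 FPKM in mpECs and 45.5 to 60.9 FPKM in bmECs, with 5 of 7 lower, and 0 of 7 erythroid markers differed. The part of these cells in the differences was not tested. Relative to the 12 endothelial markers, of which 4 were higher and 3 lower in bmECs, a scaling chosen after the data were seen, all 6 members kept their direction and passed the same threshold.

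Other genes of leukocyte adhesion did not move one way. The counts below stand beside 23.5% of all genes tested, 13.0% higher and 10.5% lower. Of 15 tested partners on the endothelium, 2 were higher in bmECs and 7 lower: the chemokine-presenting receptor Ackr1 rose from 477 ± 75.2 to 2529 ± 511 FPKM (SD, difference 2.40), while the sialomucins Cd34 and Podxl fell by 3.32 and 1.77. Of 9 tested genes that build selectin ligands, 2 were higher, the sulfotransferase Chst2 (1.57) and the sialyltransferase St3gal6 (0.58). Of 25 cytokine receptors and NF-kappaB regulators, 5 were higher and 2 lower, among them the receptor Il1r1 (0.91), the inhibitor Nfkbie (0.81) and the cytokine Il1b (-1.51). Of 12 leukocyte counter-receptors, 1 was lower, the integrin chain Itgb1 (-0.63). Of 13 genes of Weibel-Palade bodies, 1 was higher, Cd63 (0.50), and 1 lower, the plasminogen activator Plat (-3.25). Of 12 cytoplasmic partners and sheddases, the actin-binding Actn1 (0.88) was higher and Flna (-0.72) and Msn (-0.59) lower.

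**Figure D3:**
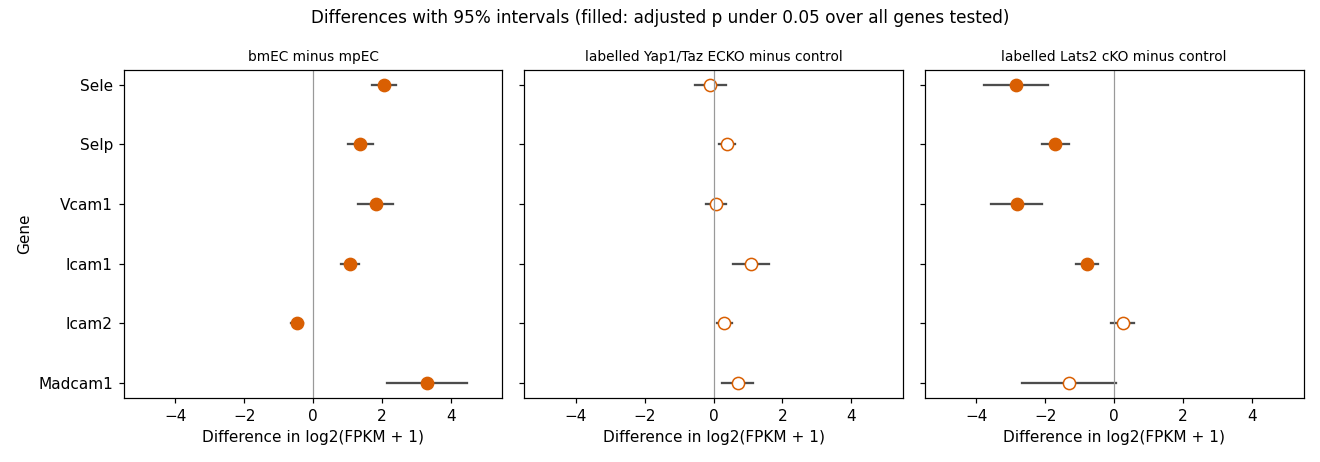
Differences in log2(FPKM + 1) with 95% intervals for the adhesion molecules in the 3 comparisons. Filled points had an adjusted p under 0.05: 6 in bmECs against mpECs, 0 for Yap1/Taz and 4 for Lats2.

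In the libraries labelled Lats2 cKO, Sele, Selp, Vcam1 and Icam1 were lower than in controls, and Madcam1 and Icam2 did not pass the test. Lats2 encodes a kinase of the Hippo pathway that phosphorylates Yap1 and Taz, and the comparison asks what its loss in ECs changes. With 4 of 6 lower, the members' count stood beside 9.98% lower and 11.8% higher, 21.8% in all, of the 12451 genes tested. The libraries of the groups did not overlap for any of the 6, with 5 lower and 1 higher, but this was so for 68.2% of all genes with 2 libraries against 2, 34.2% lower and 34.0% higher. The median difference of the members was -1.50 on the log2(FPKM + 1) scale and that of all genes -0.0031.

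Sele was at 177 and 135 FPKM in the controls and at 30.4 and 14.0 FPKM in the libraries labelled Lats2 cKO. The difference was -2.84 ± 0.37 (SE, n = 2 and 2, limma adjusted p = 0.0120). Vcam1 was at 666 and 383 FPKM in the controls and at 79.8 and 62.1 FPKM in the libraries labelled Lats2 cKO, a difference of -2.83 ± 0.29 (SE, adjusted p = 0.00913). The Vcam1 controls differed more from each other than the libraries labelled Lats2 cKO did, and even the lower control was more than 4 times the higher of those. Selp was at 177 and 154 FPKM in the controls and at 55.5 and 44.8 FPKM in the libraries labelled Lats2 cKO, a difference of -1.71 ± 0.16 (SE, adjusted p = 0.00809). Within a library, Sele was at 0.874 and 1.00 times the level of Selp in the controls and at 0.313 and 0.548 times in the libraries labelled Lats2 cKO.

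Icam1 fell less than these, from 135 and 154 FPKM in the controls to 84.4 and 82.0 FPKM (difference -0.79 ± 0.13 SE, adjusted p = 0.0171). Icam2 was at 141 and 157 FPKM in the controls and at 189 and 167 FPKM in the libraries labelled Lats2 cKO, with a 95% interval of the difference of -0.08 to 0.59 (adjusted p = 0.227), and its sign turned under quantile normalization. Madcam1 was at 14.0 and 16.7 FPKM in the controls and at 10.8 and 2.69 FPKM in the libraries labelled Lats2 cKO. Its difference of -1.30 had a wide interval, from -2.66 to 0.06 (adjusted p = 0.142), and the lowest value rested on 19 recovered reads. Without Lats2 cKO replicate 1 the difference was -2.14, which rests on the library with 19 reads, and without Lats2 cKO replicate 2 it was -0.46. Without control replicate 1 and without control replicate 2 it was -1.42 and -1.19.

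The order of mean levels was another in the libraries labelled Lats2 cKO. In the controls it was Vcam1 (525 FPKM), Selp (165), Sele (156.0), Icam2 (149), Icam1 (144) and Madcam1 (15.4), and neighbours from Selp to Icam1 overlapped. In the libraries labelled Lats2 cKO, Icam2 led with 178 FPKM, followed by Icam1 (83.2), Vcam1 (71.0), Selp (50.1), Sele (22.2) and Madcam1 (6.75), all apart from their neighbours. The summed level of the 6 was 1001 and 1310 FPKM in controls and 373 and 450.3 FPKM in the libraries labelled Lats2 cKO. Icam2 made up 10.8% and 15.7% of it in controls and 42.1% and 44.8% in the others.

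Whether the Lats2 calls held depended on which library was left out, while the differences stayed about as large. With 1 control library left out, whichever it was, 0 of the 6 passed by limma, with adjusted p-values from 0.110 to 0.163 for Sele, Selp, Vcam1 and Icam1, where the lone control was assumed to vary like the other group. Without control replicate 1 and without control replicate 2 the difference was -2.64 and -3.04 for Sele, -1.61 and -1.80 for Selp, -2.43 and -3.22 for Vcam1, and -0.88 and -0.69 for Icam1. Without Lats2 cKO replicate 2, Sele and Selp passed, and Vcam1 (adjusted p = 0.0501) and Icam1 (0.0594) did not.

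Of the marker lists of blood cells, that of leukocytes had most of its tested genes lower in the libraries labelled Lats2 cKO. The 12 leukocyte markers summed to 1353 to 1964 FPKM in controls and 529 to 702.5 FPKM in the libraries labelled Lats2 cKO, with 6 of 11 lower. The 10 platelet markers summed to 30.4 FPKM in one control and 126 FPKM in the other and to 17.3 and 18.1 FPKM in the libraries labelled Lats2 cKO, with 1 of 8 lower. The 7 erythroid markers summed to 2412 to 3655 FPKM in controls and 241.6 to 1392 FPKM in the libraries labelled Lats2 cKO, with 1 of 7 lower and a median difference of -2.58. The 10 macrophage markers summed to 20.01 to 28.0 and 23.2 to 53.0 FPKM, with 0 of 6 called, and the 8 stromal markers, with 2 of 7 higher, to 50.02 to 54.6 and 66.1 to 72.0 FPKM. Of the osteoblast markers 1 of 6 was higher, and of the dissociation stress genes 1 of 11 higher and 2 lower. Their part in the lower Sele, Selp, Vcam1 and Icam1 was not tested. Relative to the 12 endothelial markers, of which 1 was higher and 2 lower, the same 4 members passed.

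Among other genes of leukocyte adhesion, 6 of 17 partners on the endothelium were higher and 4 lower. These and the next counts stand beside 11.8% of all genes tested higher and 9.98% lower. Stab2, a scavenger receptor of sinusoids, fell by 2.90 and Ackr1 by 1.51, and Cd34 rose from 244 ± 19.9 to 628 ± 49.8 FPKM (SD, difference 1.36). Of 25 cytokine receptors and NF-kappaB regulators, 8 were lower and 0 higher, led by Nfkb1 (-1.12), Il13ra1 (-0.88) and Nfkbie (-0.70). Of 14 genes of Weibel-Palade bodies, in which P-selectin is stored, 5 were higher and 0 lower, among them Angpt2 (4.98), Vwf (2.25) and Igfbp7 (1.20). Of 10 leukocyte counter-receptors, Cd24a (-2.77) and Selplg (-1.68), which encodes the P-selectin ligand PSGL-1, were lower and Itgb1 (0.61) was higher. The sulfotransferase Chst2 (-1.03) was the 1 of 8 selectin ligand genes that was lower, and 2 of 13 cytoplasmic partners and sheddases were higher.

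Set beside the comparison of bmECs and mpECs, with which the Lats2 libraries share no sample, Sele, Selp, Vcam1 and Icam1 were higher in bmECs and lower in the libraries labelled Lats2 cKO. Of the 10471 genes tested in both, 4.73% were called in this way, and 4.05% were lower in bmECs and higher in the libraries labelled Lats2 cKO. Only 0.325% were higher in both and 0.181% lower in both. Opposite directions were thus the rule among all genes called in both, not particular to the members.

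**Figure D4:**
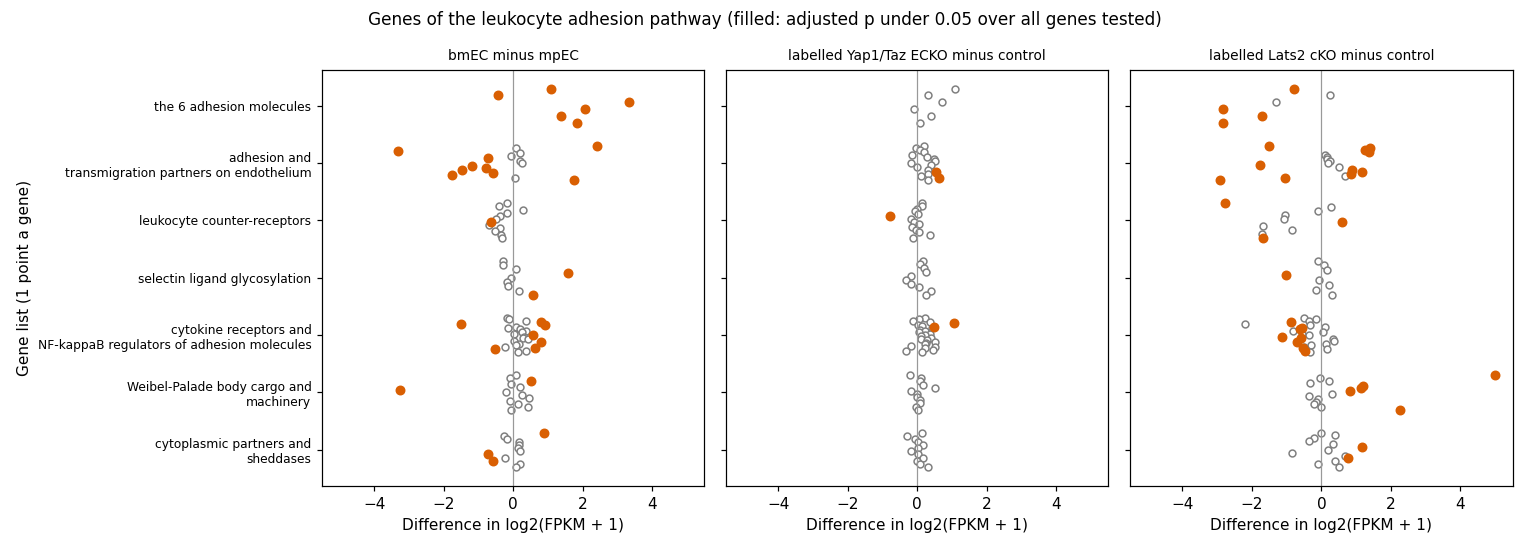
Differences in log2(FPKM + 1) of the adhesion molecules and of the genes of 6 related lists, 1 point a gene, in the 3 comparisons. Filled points had an adjusted p under 0.05, as 8 of the 25 cytokine receptors and NF-kappaB regulators did for Lats2, all lower.

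Between the libraries labelled Yap1/Taz ECKO and their controls, none of the 6 adhesion molecules passed limma's test at an adjusted p under 0.05, against 1.31% of the 11320 genes tested, 0.883% higher and 0.424% lower. Yap1 and Taz are transcriptional coactivators held back by the Hippo pathway. At an unadjusted p under 0.05 there were 4 of 6, against 17.9% of all genes, and limma-voom on recovered reads called 1, Icam1. For Selp, Icam1, Icam2 and Madcam1 every library labelled Yap1/Taz ECKO was above every control, against 12.3% of all genes in that direction and 23.6% in either. At a stricter threshold, an adjusted p under 0.01 with an absolute difference over 0.5, 0 of 6 passed here (0.00883% of all genes), 5 in bmECs against mpECs (11.7%) and 2 for Lats2 (2.06%). The median difference was 0.35 for the members, -0.0047 for all genes tested and 0.29 for the 12 endothelial markers.

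Icam1 had the largest difference. It was at 113, 98.6 and 68.5 FPKM in the controls and at 136, 232 and 235 FPKM in the libraries labelled Yap1/Taz ECKO, where replicate 1 lay well below the other two (difference 1.09 ± 0.23 SE, adjusted p = 0.0582). Over the alternatives its difference ranged from 0.70 to 1.34 and its adjusted p from 0.0116 to 0.231. Without Yap1/Taz ECKO replicate 1 it passed (1.34, adjusted p = 0.0116), as it did relative to the endothelial markers (0.70, adjusted p = 0.0154).

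Sele was at 33.9, 32.8 and 30.1 FPKM in the controls and at 20.4, 35.7 and 37.7 FPKM in the libraries labelled Yap1/Taz ECKO, with replicate 1 again the lowest. The groups overlapped (difference -0.09, 95% interval -0.53 to 0.35), and without that library the sign turned (0.18). Relative to the endothelial markers the difference was -0.47 (adjusted p = 0.0310). These markers had a median difference of 0.29, so that scaling lowered the difference of every gene. Vcam1 was at 825, 670 and 888 FPKM in the controls and at 775, 881 and 821 FPKM in the libraries labelled Yap1/Taz ECKO, which overlapped (difference 0.06, 95% interval -0.23 to 0.36).

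Selp was at 15.5, 15.4 and 18.0 FPKM in the controls and at 20.2, 21.4 and 22.9 FPKM in the libraries labelled Yap1/Taz ECKO (difference 0.38, adjusted p = 0.0991). Icam2 was at 38.0, 38.9 and 33.0 FPKM in the controls and at 43.4, 46.7 and 46.6 FPKM in the others (0.31, adjusted p = 0.139). Neither gene kept that sign relative to the endothelial markers, where the differences were -0.0033 and -0.073. Madcam1 was at 4.01, 5.73 and 7.74 FPKM in the controls and at 8.14, 11.9 and 9.79 FPKM in the libraries labelled Yap1/Taz ECKO, the lowest levels of the 6 in both groups (0.71, adjusted p = 0.110).

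Vcam1 led the order in both groups, with 794 FPKM in the controls and 826 in the libraries labelled Yap1/Taz ECKO, followed by Icam1 (93.2 and 201), Icam2 (36.6 and 45.6), Sele (32.2 and 31.2), Selp (16.3 and 21.5) and Madcam1 (5.82 and 9.95). Only Icam2 and Sele in the controls, and Sele and Selp in the others, overlapped. Icam1 made up 6.55% to 11.5% of the summed level in controls and 13.5% to 20.04% in the libraries labelled Yap1/Taz ECKO.

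The 10 macrophage markers summed to 1169 to 1701 FPKM in the controls and 1200 to 1325 FPKM in the libraries labelled Yap1/Taz ECKO, the 12 leukocyte markers to 2386 to 2874 and 2004 to 3837 FPKM, and the 10 platelet markers to 158.0 to 179 and 170.0 to 195.0 FPKM. Of these, 0 of 10, 0 of 11 and 1 of 8 tested were higher, and none was lower. Of the osteoblast markers 3 of 7 were lower, and 1 of 11 dissociation stress genes was higher. The 12 endothelial markers summed to 724.6 to 763 and 914.7 to 1061 FPKM, and 1 of them, Cldn5, was higher (1.09). Their part in the levels of Icam1 and the other members was not tested.

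Of the related lists, 2 of 17 partners on the endothelium were higher, Stab1 (0.62) and Mcam (0.53), as were 2 of 27 cytokine receptors and NF-kappaB regulators, Il1b (1.06) and Il4ra (0.47). Of 14 leukocyte counter-receptors, 1 was lower. None of the tested genes that build selectin ligands, of Weibel-Palade bodies or of the cytoplasmic partners and sheddases passed. Of all genes tested, 0.883% were higher and 0.424% lower.

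Over the 16 libraries, with log2(FPKM + 1) centred within each of the 3 tables, Sele, Selp and Vcam1 had Pearson's r of 0.942 to 0.967 with each other. Icam1 had 0.645 to 0.752 with these 3, Madcam1 0.775 to 0.812, and Icam2 -0.70 to -0.63. These values describe group differences and spread between libraries together. Among 4948 genes that averaged 5 FPKM or more in each table, the patterns most like Sele were those of Ubd, which encodes a ubiquitin-like modifier (r = 0.990), Tmem106a (0.984) and Slc16a9 (0.980). For Selp they included Lgmn, which encodes the protease legumain (0.988), and Pparg, a nuclear receptor (0.984), and for Vcam1 they were Slc16a9 (0.990), Serpina3f (0.987) and Gpr160 (0.985). The closest to Icam1 were Ube2j1 (0.940), Adamts1 (0.926) and Angptl4 (0.922), and to Icam2 Bcl6b (0.930), St8sia4 (0.926) and the VEGF receptor Flt1 (0.915). For Madcam1 they were Tmem18 (0.947), the TGF-beta co-receptor Tgfbr3 (0.944) and the interferon-gamma receptor Ifngr1 (0.932).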

How the data were processed

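Per the labels and the study's methods, the authors made stranded total RNA libraries, mapped reads with TopHat to mm10, which is GRCm38, and counted them per gene with HTSeq 0.6.1. They deposited FPKM values, and the step from counts to FPKM is not given in the sources used here. Samples were grouped by their labels, and each column was matched to a sample. From these values log2(FPKM + 1) was tested for genes that averaged 1 FPKM or more over a comparison with limma 3.58.1 (R 4.3.3, moderated variances with a mean trend), and two-sided p-values were adjusted by Benjamini-Hochberg over all genes tested. A difference on this scale understates that of low genes. Calls used an adjusted p under 0.05. Reads were recovered from FPKM, GENCODE M21 exon lengths and the step between low values. Of values up to 20 reads, 62.4% to 70.0% per library were whole within 0.02, so reads served only to give depth and for limma-voom as an alternative. No 2 replicates were alike within counting noise. Named genes are the 6 members, the targeted genes, and from each list and comparison up to 3 called genes with the largest difference and an average of 5 FPKM or more. For each member the 3 genes with the highest Pearson's r are named, except that some items are not reported here. The members and lists were chosen with earlier results of these data known. The code was tested on simulated data. Tables and plots used Python 3.11.15, pandas 2.3.3, numpy 2.4.6 and matplotlib 3.10.9.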

Additional observations from a re-analysis of the deposited data

How the results depend on the processing

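The alternatives were a pseudocount of 0.1, no filter or a mean of at least 5 FPKM, no mean-variance trend, quantile or median-of-ratios scaling, limma-voom on recovered reads, a replicate block, an adjusted p under 0.01 with an absolute log2 fold change over 0.5, leaving out each library, and, chosen after the data were seen, values relative to 12 endothelial markers. In bmECs against mpECs all 6 members kept their direction in each, and all passed except Icam2 under the stricter threshold. For Lats2 the stricter threshold left 2 of the 4 members, and leaving out 1 library gave 0 to 5 members. For Yap1/Taz, where 0 members passed, 1 passed with a mean of at least 5 FPKM, with quantile scaling and with voom (Icam1 each time). Relative to the endothelial markers 2 passed (Icam1 and Sele), and when a library was left out 0 to 1 did. The markers had a median difference of 0.29 there, so scaling to them lowered the difference of every gene. Except at the stricter threshold, the share of all genes that passed was not taken under the alternatives. Signs turned for Sele without Yap1/Taz ECKO replicate 1 (0.18, range -0.24 to 0.18 when a library was left out), for Vcam1 without control replicate 2 (-0.054, range -0.054 to 0.15), for Selp (-0.0033), Icam2 (-0.073) and Vcam1 (-0.32) relative to the endothelial markers, and for Icam2 in Lats2 under quantile scaling (-0.020). The cause was not tested.

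Of the genes in the related lists, 24 passed in bmECs against mpECs, 5 for Yap1/Taz and 29 for Lats2. Of all genes tested, 23.5%, 1.31% and 21.8% passed in these comparisons. For Yap1/Taz this became 0 without the filter, without the trend and under the stricter threshold, and 0 to 12 when a library was left out: 12 without Yap1/Taz ECKO replicate 1, and 0 without control replicate 2 or 3 or Yap1/Taz ECKO replicate 2 or 3. For Lats2 it became 13 without the filter, 19 without the trend, 4 under the stricter threshold, and 0 to 27 when a library was left out: 0 without either control and 13 without Lats2 cKO replicate 2. With fewer genes tested or fewer libraries the power differs by construction.

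Replicate numbers are shared between groups, but the sources used here do not say whether they pair the samples. In mpECs and bmECs, deviations of same-numbered libraries correlated at 0.307, 0.0876 and 0.102, and those of differently numbered libraries at -0.206 to 0.115. For Yap1/Taz the same-numbered values were -0.175, -0.123 and -0.155 and the others -0.154 to 0.235. For Lats2 they were 0.0651 and -0.0651. Whether same-numbered libraries share an animal was not tested. With the replicate block the members that passed numbered 6, 0 and 4, and the genes of the related lists 27, 1 and 30. Taking medians in place of means left 21 in place of 20 of 30 neighbouring pairs in the order of levels apart. Depth limits Madcam1 most.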

Other observations

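Genes next to Icam1 were looked at after their values were seen. Icam4 and Icam5 lie 556 and 3256 bases from it. Icam4 is also in the list of partners on the endothelium, where it was among the 4 lower genes for Lats2. Icam4 was listed at 0 in all 6 mpEC and bmEC libraries, while it was at 4.21 and 4.82 FPKM in the Lats2 controls, at 0.584 and 0.664 FPKM in the libraries labelled Lats2 cKO (difference -1.76 on the log2(FPKM + 1) scale, limma adjusted p = 0.0102) and at 4.41 to 8.74 FPKM in the Yap1/Taz libraries. The tables were normalised separately, and how each was annotated is not given in the sources used here. Icam5 was at 0.636 to 0.926 FPKM in the Yap1/Taz controls and at 2.37 to 3.54 FPKM in the libraries labelled Yap1/Taz ECKO (1.17, adjusted p = 0.0235), the same direction as the difference of Icam1. It was at 0.0691 FPKM or below in every other library.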
